A study of Mus musculus with 4 samples.

Results

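The genes described here mark T cells, the lymphocytes that recognise antigen through the T cell receptor, and regulatory T cells, the subset that restrains other immune cells. They are the 10 genes Cd3d, Cd3e, Cd3g, Cd4, Cd8a, Foxp3, Ctla4, Icos, Il2ra and Ikzf2. They were chosen by name, with earlier results of these data known. All 10 have 1 row each among the 17691 genes of the deposited table. The RNA is that of lungs from C57BL/6 mice, wild type and aged 6 to 8 weeks. Bleomycin, which breaks DNA and is used to injure the lung, or PBS, a salt buffer, was given through the nose, and the labels give 10 days of treatment. Each group has 2 libraries, numbered 1 and 2. The labels' protocol text speaks of 4 groups and the design text of 3 replicates, whereas 2 groups of 2 libraries were analysed here. The labels do not say whether the libraries came from separate mice, so the p-values speak of the spread among these 4 libraries alone, part of which may be technical.

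As background, the CD3 chains encoded by Cd3d, Cd3e and Cd3g carry the signal of the T cell receptor and are present on all T cells. CD4 and CD8 are co-receptors that divide T cells into helper and cytotoxic lineages. Regulatory T cells are defined by the transcription factor Foxp3, and they display the inhibitory receptor CTLA-4 and the alpha chain of the interleukin 2 receptor, encoded by Il2ra. In injured lung these cells are known for restraining inflammation and taking part in tissue repair.

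Values are FPKM, fragments per kilobase of transcript scaled to sequencing depth, as the authors deposited them. The depth, estimated from the spacing of low values, was 17000000 to 17800000 fragments per library. At this depth the genes rest on few fragments: mean levels over the 4 libraries ran from 0.703 FPKM for Ikzf2 to 7.33 FPKM for Cd3g. The labelled tissue was checked by its markers, with Sftpc, the gene of surfactant protein C, at 7913 to 12788 FPKM. Of 9 genes of thymus and immature thymocytes, 8 had means below 1 FPKM, the highest of them Psmb11 at 0.56 to 0.62 FPKM. The exception was Cd1d1, a lipid-presenting molecule made by many cell types, at 6.63 to 8.11 FPKM. Rag1 was at 0.07 FPKM or less. The lungs were sequenced whole, so fewer T cells and less of a transcript per T cell cannot be told apart.

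Foxp3 and Ctla4 rose with bleomycin and were above PBS in each bleomycin library, whereas the 3 CD3 genes lay above PBS in bleomycin library 1 and below PBS in library 2. Of the 10 genes, 9 had a mean of at least 1 FPKM and were tested. By limma with Benjamini-Hochberg adjustment over 12986 genes, 2 of the 9 rose, 0 fell and 7 did not pass. At an unadjusted p under 0.05 the counts were also 2 and 0, where 2231 of all 12986 tested genes were higher and 2349 lower. Among all tested genes 8.59% rose and 7.69% fell, so with 9 genes tested these 2 rises are the whole result. The median log2 change of the 9 tested genes was 0.25, against -0.02 over all tested genes. Calls moved with the bleomycin library left out, among the 9 genes and among all tested genes. In such a fit 1 library stands for bleomycin, and the residual spread comes from the PBS libraries alone. Its calls say nothing of the spread with bleomycin, so log2 changes are given below for single genes. Without a PBS library limma called 0 genes of any kind.

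**Figure D1:**
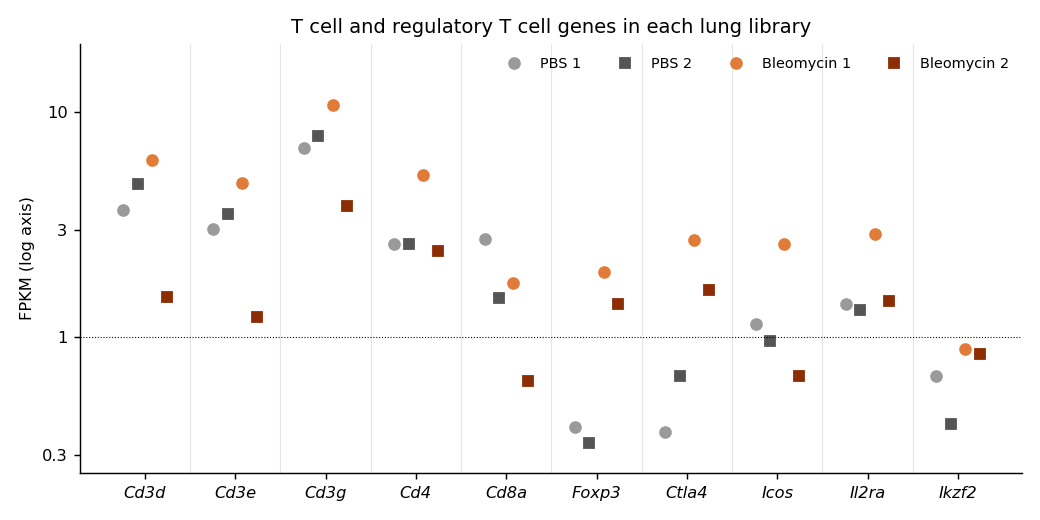
FPKM on a log axis for the 10 genes, with 1 point for each of the 4 libraries and a dotted line at 1 FPKM. Foxp3 and Ctla4 have both bleomycin points above both PBS points, while the PBS points of Cd3d, Cd3e and Cd3g lie between the 2 bleomycin points.

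Foxp3, the transcription factor that defines regulatory T cells, stood at 0.4 and 0.34 FPKM in the PBS libraries and at 1.94 and 1.4 FPKM in the bleomycin libraries. It had the lowest PBS mean of the 10 genes, and both bleomycin libraries were well above both PBS libraries. The group means were 0.37 ± 0.0424 FPKM with PBS and, 4.51 times higher, 1.67 ± 0.382 FPKM with bleomycin (SD, n = 2 per group). On the log2(FPKM + 1) scale, where changes of low genes come out too small, the change was 0.96 ± 0.17 (SE; adjusted p = 0.0284 by limma). With a pseudocount of 0.1 it was 1.90 (adjusted p = 0.0269 by limma). Foxp3 reached the mean of 1 FPKM only through the bleomycin libraries, its mean over the 4 being 1.02 FPKM. With no filter on low values, where 4.58% of 17691 genes were higher, it still passed (adjusted p = 0.0355 by limma). Foxp3 was also higher without bleomycin library 1 (log2 change 0.81) and without library 2 (log2 change 1.10), each time with 1 bleomycin library left. Without a PBS library it did not pass (adjusted p = 0.238 without library 1 and adjusted p = 0.248 without library 2, by limma). With the annotated transcript lengths of 3681 to 3834 bases these levels correspond to about 25 and 21 fragments with PBS and at 123 and 92 with bleomycin at the shorter length.

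Foxp3 lies on chromosome X (7579676 to 7595243, GRCm38.p6), and the groups differed in sex-linked transcripts. The Y-linked gene Eif2s3y, chosen after its values were seen, was at 26.4 and 28.9 FPKM with PBS, against a listed 0 with bleomycin in libraries 1 and 2. This signal runs with the treatment groups, so in every comparison between them sex and treatment cannot be told apart.

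Ctla4 encodes an inhibitory receptor that competes with CD28 for the ligands CD80 and CD86. It was at 0.38 and 0.67 FPKM with PBS and at 2.7 and 1.62 FPKM with bleomycin. The groups did not overlap, and bleomycin library 1 was the highest of the 4. The group means were 0.525 ± 0.205 FPKM for PBS and 2.16 ± 0.764 FPKM for bleomycin (SD, n = 2 per group), a ratio of 4.11 and a log2 change of 1.04 ± 0.23 (SE; adjusted p = 0.0454 by limma). The call is close to the threshold. It was lost with no filter on low values (adjusted p = 0.0708 by limma) and with the replicate number as a block (adjusted p = 0.071 by limma). Ctla4 was also higher without bleomycin library 1 (log2 change 0.79) and without library 2 (log2 change 1.29). Like Foxp3, it passed the filter through its bleomycin values. The 2 annotated transcripts differ in length, 614 and 1933 bases. The 4 libraries therefore hold about 4, 7, 29 and 18 fragments at the shorter length, or 12, 22, 90 and 56 at the longer one.

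The promoters of these 2 genes are shown because they were the ones that passed. The sequences, from RefSeq on GRCm38.p6, are the 250 bases before a transcript start, for Foxp3 chrX:7579426-7579675 and for Ctla4 chr1:60908775-60909024, both on the plus strand, 5′ to 3′. Capitals mark AGGAAG or its reverse complement CTTCCT, the core of ETS family sites, and TATAAA or its reverse complement, the TATA box.
Foxp3: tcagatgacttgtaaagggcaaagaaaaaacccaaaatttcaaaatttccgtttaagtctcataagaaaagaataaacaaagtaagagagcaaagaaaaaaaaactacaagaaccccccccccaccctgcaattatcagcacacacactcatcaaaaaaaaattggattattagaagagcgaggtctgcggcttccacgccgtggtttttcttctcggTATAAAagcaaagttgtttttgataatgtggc
Ctla4: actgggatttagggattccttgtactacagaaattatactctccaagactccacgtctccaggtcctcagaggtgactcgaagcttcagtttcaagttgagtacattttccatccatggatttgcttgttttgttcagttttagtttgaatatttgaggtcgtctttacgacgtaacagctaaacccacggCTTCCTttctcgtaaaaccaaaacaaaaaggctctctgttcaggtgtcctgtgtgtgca
The Foxp3 window holds TATAAA 32 bases before the start and no AGGAAG. The Ctla4 window holds 1 AGGAAG on the opposite strand and no TATAAA. Among all 32851 RefSeq windows of that length, 12.4% hold TATAAA and 29.5% hold AGGAAG on either strand. RefSeq gives Foxp3 a further window before another start, chrX:7580233-7580482, which holds AGGAAG once. Letters for NFAT (GGAAAA), RUNX (TGTGGT) and forkhead (TGTTTAC) factors, searched on both strands with overlapping matches kept, were in 20.4%, 14.0% and 3.17% of all windows. Of the 8 windows of the 7 genes with an entry, 2 hold GGAAAA, 0 hold TGTGGT and 0 hold TGTTTAC. The 2 with GGAAAA are that of Ctla4 and the further Foxp3 window. No windows were at hand for Cd4, Icos and Ikzf2.

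Cd3d, Cd3e and Cd3g, the signalling chains common to all T cells, had the same order of levels in the 4 libraries, and none passed the test between treatments. Cd3d was at 3.66 and 4.79 FPKM with PBS and at 6.14 and 1.51 FPKM with bleomycin. Cd3e was at 3.02 and 3.52 FPKM with PBS and at 4.82 and 1.23 FPKM with bleomycin. Cd3g was at 6.92 and 7.83 FPKM with PBS and at 10.8 and 3.82 FPKM with bleomycin. For all 3 genes bleomycin library 1 was the highest and bleomycin library 2 the lowest, so the groups overlapped. The group means were close, with Cd3g at 7.38 ± 0.643 FPKM for PBS and 7.29 ± 4.9 FPKM for bleomycin (SD, n = 2 per group). The log2 changes were -0.30 for Cd3d, -0.24 for Cd3e and -0.15 for Cd3g. Their 95% intervals, from -1.63 to 1.04, from -1.46 to 0.97 and from -1.27 to 0.97, include changes in both directions. Without bleomycin library 1 all 3 were lower, with log2 changes of -1.05 for Cd3d, -0.93 for Cd3e and -0.79 for Cd3g. Without library 2 the sign turned, with log2 changes of 0.46, 0.45 and 0.49.

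The ratio between the bleomycin libraries exceeded counting error for the CD3 genes. Cd3d was 4.07 times higher in library 1 than in library 2, with a 95% exact interval of 2.92 to 5.87 from the estimated fragments. The ratios were 3.92 for Cd3e (2.65 to 6) and 2.81 for Cd3g (2.12 to 3.74). These intervals compare 2 libraries and cover counting error only. Between the 2 PBS libraries each CD3 gene was under 2-fold apart, as were all but 0.377% of tested genes.

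The CD3 genes sit in a cluster on chromosome 9 (GRCm38.p6), Cd3g at 44969572 to 44980431 on the minus strand, Cd3d at 44981769 to 44987052 on the plus strand and Cd3e at 44998735 to 45009663 on the minus strand. Cd3g and Cd3d are transcribed away from each other with 1337 bases between them, and 11682 bases lie between Cd3d and Cd3e. Their promoter windows are shown because the 3 genes had the same order over the 4 libraries. Cd3d over Cd3e was 1.21 and 1.36 with PBS and at 1.27 and 1.23 with bleomycin. Cd3g over Cd3e was 2.29 and 2.22 with PBS and at 2.23 and 3.11 with bleomycin, bleomycin library 2 standing above the rest. The windows are chr9:44981536-44981785 for Cd3d, chr9:45009612-45009861 for Cd3e and chr9:44980432-44980681 for Cd3g, each on the gene's own strand, 5′ to 3′, with the same letters in capitals.
Cd3d: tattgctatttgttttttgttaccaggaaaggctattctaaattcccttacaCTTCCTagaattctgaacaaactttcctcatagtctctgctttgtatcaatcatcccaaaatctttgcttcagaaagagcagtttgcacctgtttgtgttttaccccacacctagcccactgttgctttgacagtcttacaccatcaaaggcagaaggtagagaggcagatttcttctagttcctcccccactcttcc
Cd3e: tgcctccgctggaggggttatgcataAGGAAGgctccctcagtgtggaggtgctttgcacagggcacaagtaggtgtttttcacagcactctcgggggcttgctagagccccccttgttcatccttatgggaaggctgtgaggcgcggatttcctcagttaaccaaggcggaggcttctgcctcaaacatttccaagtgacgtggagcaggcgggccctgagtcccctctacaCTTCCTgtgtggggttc
Cd3g: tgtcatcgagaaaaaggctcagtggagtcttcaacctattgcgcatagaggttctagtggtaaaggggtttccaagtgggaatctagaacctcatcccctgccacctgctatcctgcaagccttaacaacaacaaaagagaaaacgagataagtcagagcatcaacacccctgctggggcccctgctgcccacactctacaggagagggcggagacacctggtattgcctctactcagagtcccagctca
Cd3d holds AGGAAG once and Cd3e 2 times, and in the Cd3g window neither AGGAAG nor TATAAA occurs. The GC content was 41.2%, 57.2% and 51.6%, against a median of 52.4% over all windows. In all, 5 of the 8 windows of these T cell genes hold AGGAAG.

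The co-receptor genes stood apart from each other. Cd4 was at 2.6 and 2.58 FPKM with PBS and at 5.26 and 2.41 FPKM with bleomycin. Library 1 of the bleomycin group was the highest and library 2 lay just under PBS, so the groups overlapped (log2 change 0.36 ± 0.30, adjusted p = 0.44 by limma). Cd8a, the marker of cytotoxic T cells, was at 2.72 and 1.49 FPKM with PBS and at 1.74 and 0.64 FPKM with bleomycin. Its PBS libraries differed more than those of Cd4, the groups overlapped, and the change did not pass (-0.52 ± 0.33, adjusted p = 0.318 by limma). Its lowest value was again in bleomycin library 2. Within each library, Cd4 over Cd8a was 0.956 and 1.73 with PBS and at 3.02 and 3.77 with bleomycin, with no overlap between groups. Without bleomycin library 2 the log2 change was 0.80 for Cd4 and -0.15 for Cd8a. Without library 1 the sign of Cd4 turned (-0.07), and the change of Cd8a was -0.89. CD4 and CD8 alpha are also made by some dendritic cells, so these genes alone do not count T cells.

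Icos encodes a co-stimulatory receptor of activated T cells and is abundant on many regulatory T cells. It was at 1.15 and 0.96 FPKM with PBS and at 2.59 and 0.67 FPKM with bleomycin. Like the CD3 genes it was highest in bleomycin library 1 and lowest in library 2, with a ratio of 3.87 between them (95% exact interval 2.68 to 5.61, counting error only). The log2 change was 0.25 ± 0.38 (adjusted p = 0.673 by limma), turning to -0.30 without library 1 and to 0.81 without library 2. Icos lies 44940 bases from Ctla4 on chromosome 1, with the 2 gene bodies at 60909025 to 60915832 for Ctla4 and 60960773 to 61000322 for Icos. In bleomycin library 2 Ctla4 was 3.09 times the PBS mean and Icos 0.635 times.

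Il2ra, the high-affinity interleukin 2 receptor chain also known as CD25, was at 1.41 and 1.32 FPKM with PBS and at 2.86 and 1.45 FPKM with bleomycin. Both bleomycin values were above both PBS values, but library 2 only just. The change did not pass (0.38 ± 0.25, adjusted p = 0.331 by limma). It was 0.05 without library 1 and 0.71 without library 2. Ikzf2, which encodes Helios, a transcription factor of the Ikaros family found in many regulatory T cells, was at 0.67 and 0.41 FPKM with PBS and at 0.89 and 0.84 FPKM with bleomycin. The groups did not overlap, but the gene lay below the filter. With no filter its log2 change was 0.28 (adjusted p = 0.178 by limma). In all, 4 of the 10 genes, Foxp3, Ctla4, Il2ra and Ikzf2, were higher in both bleomycin libraries than in both PBS libraries and 0 were lower. Over all 17691 genes 28.2% were higher and 31.0% lower in this sense. With only 10 genes counted, the higher share lies near that background, and the lower share of 0 lies under it.

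**Figure D2:**
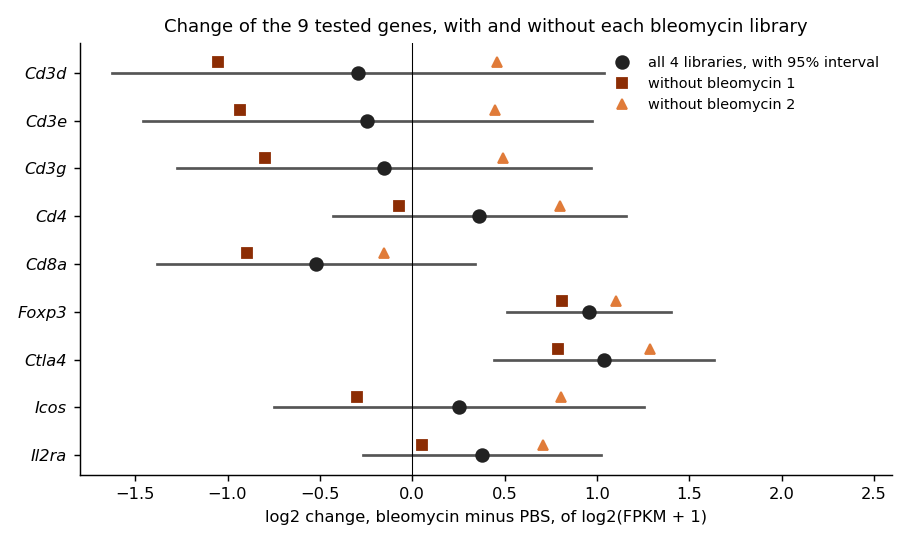
Log2 change of the 9 tested genes, bleomycin minus PBS, as points with 95% intervals from limma on all 4 libraries, and the estimate without bleomycin library 1 (squares) and without library 2 (triangles). Foxp3 and Ctla4 stay between 0.79 and 1.29 in both, while the CD3 genes, Cd4 and Icos turn sign.

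All 10 genes were higher in bleomycin library 1 than in library 2, and 6 of them at least 2-fold: Cd3d, Cd3e, Cd3g, Cd4, Cd8a and Icos. Among all tested genes 4.76% were at least 2-fold higher in library 1 than in library 2 and 1.01% at least 2-fold higher in library 2. The other 4 were closer, with ratios of 1.97 for Il2ra, 1.67 for Ctla4, 1.39 for Foxp3 and 1.06 for Ikzf2. By counting error alone the interval was 1.57 to 2.50 for Il2ra and 0.893 to 3.18 for Ctla4. It was 1.04 to 1.83 for Foxp3 and 0.828 to 1.34 for Ikzf2. That of Ctla4, from fragments at the shorter transcript length, overlaps those of the CD3 genes. Library 2 was the lowest of the 4 libraries for the same 6 genes, as it was for 39.2% of all tested genes.

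Markers of other lymphocytes were low in the same library. The summed level of 8 B cell markers was 43.1 and 43.4 FPKM with PBS, 46.6 FPKM in bleomycin library 1 and 9.78 FPKM in library 2. Of the 7 tested B cell markers 7 were at least 2-fold higher in library 1 than in library 2, Cd79a, part of the B cell receptor, being at 16.4 and 2.34 FPKM there and at 13.3 and 12.9 FPKM with PBS. The summed level of 10 NK cell markers was 53.5 and 38.3 FPKM with PBS, 26.5 FPKM in bleomycin library 1 and 5.87 FPKM in library 2. Klre1, an NK cell receptor gene, was listed at 0 in library 2. Gzma, the granzyme A gene of NK and cytotoxic T cells, was at 26.9 and 17.2 FPKM with PBS and at 7.63 and 0.64 FPKM with bleomycin. Some dendritic cell markers were low there too, with 4 of 7 tested at least 2-fold higher in library 1, where 4.76% of all tested genes were. Their summed level over 8 genes was 58.44 and 56.55 FPKM with PBS, 92.02 FPKM in bleomycin library 1 and 36.44 FPKM in library 2. Of 8 monocyte and macrophage markers 1 was at least 2-fold higher in library 1 and 1 in library 2. Genes of lung epithelium and endothelium were not low in library 2 to this degree, with 0 of 8 at least 2-fold apart in either direction. The part of these marker levels in the values of the T cell genes was not tested.

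**Figure D3:**
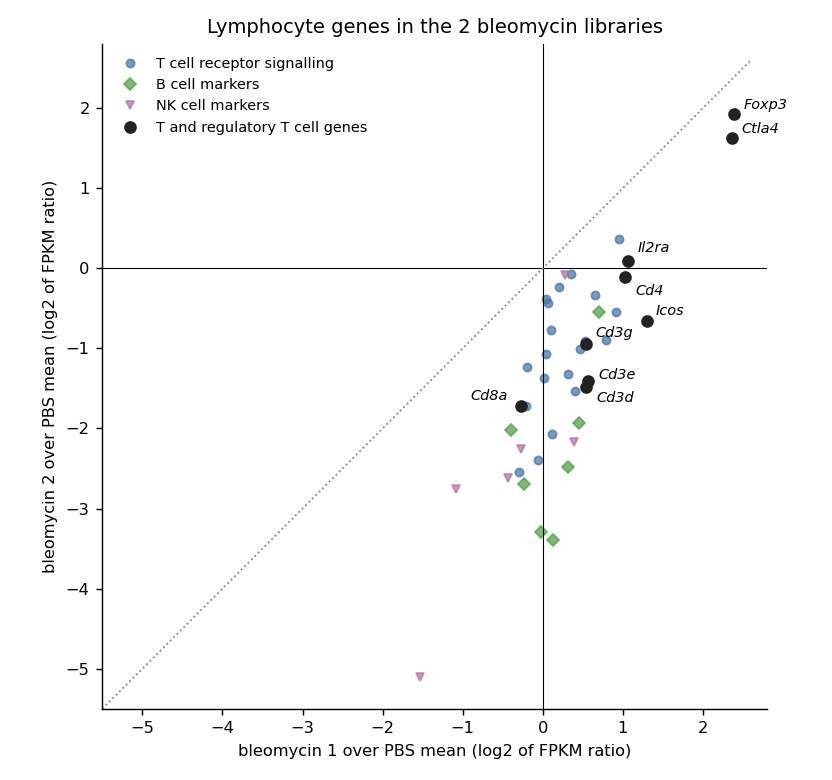
Log2 ratio of each bleomycin library to the PBS mean, library 1 on the horizontal and library 2 on the vertical axis, with points for tested genes and a dotted line of equal values. B cell and NK cell markers and most T cell genes lie below the line and below 0 in library 2, and Foxp3 and Ctla4 lie above 0 in both.

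Each gene was also set against the CD3 genes of its own library, as a description with no test. Foxp3 over the mean of Cd3d, Cd3e and Cd3g was 0.0882 and 0.0632 with PBS and at 0.268 and 0.64 with bleomycin. Ctla4 over the same mean was 0.0838 and 0.125 with PBS and at 0.373 and 0.741 with bleomycin. Both ratios were higher in both bleomycin libraries, and highest in library 2, where the CD3 genes were lowest. Foxp3 over Cd4 was 0.154 and 0.132 with PBS and at 0.369 and 0.581 with bleomycin. Cd4 over the CD3 mean was 0.574 and 0.48 with PBS and at 0.727 and 1.1 with bleomycin. Icos over the CD3 mean was 0.254 and 0.178 with PBS and at 0.358 and 0.306 with bleomycin. Cd8a over the CD3 mean, at 0.6 and 0.277 with PBS and at 0.24 and 0.293 with bleomycin, overlapped between groups. So did Ikzf2, at 0.148 and 0.0762 with PBS and at 0.123 and 0.384 with bleomycin.

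**Figure D4:**
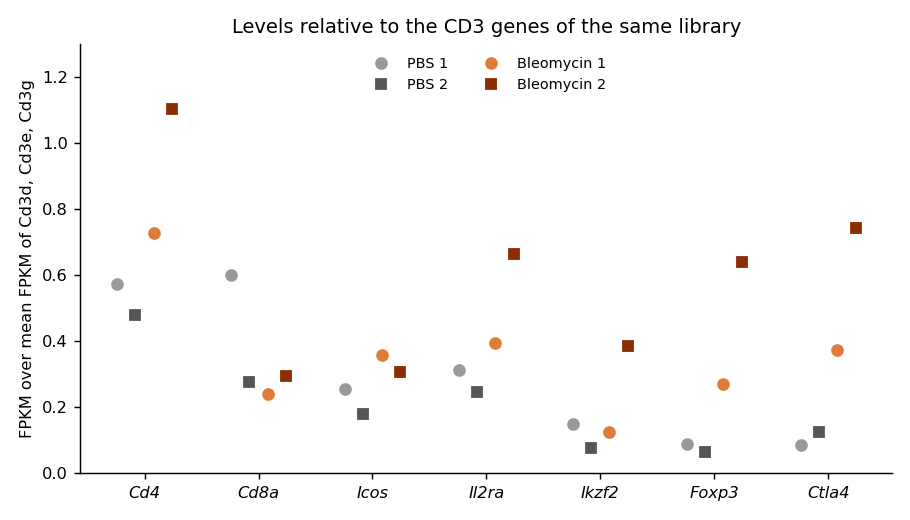
FPKM of 7 genes divided by the mean FPKM of Cd3d, Cd3e and Cd3g in the same library, with 1 point per library. For Foxp3 and Ctla4 the PBS points lie at 0.125 or below and the bleomycin points between 0.268 and 0.741.

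Genes of the T cell receptor complex and its proximal signalling were mostly lowest in the same library. Of 26 such genes 20 were tested, and by limma 0 rose and 0 fell, where 8.59% and 7.69% of all tested genes did. Without adjustment 1 was higher and 0 were lower at p under 0.05, against 2231 and 2349 of all 12986 tested genes. The median log2 change was -0.18, against -0.02 over all genes. In bleomycin library 2, 19 of the 20 had their lowest value of the 4 libraries, against 39.2% of all tested genes. At least 2-fold higher in library 1 were 13 of the 20, against 4.76%. The counts of calls moved with the bleomycin library left out. Fyn, a kinase of the Src family, had the highest mean, at 23.1 and 24 FPKM with PBS and at 27.1 and 20.1 FPKM with bleomycin. Cd2, an adhesion receptor of T and NK cells, was at 18.4 and 18 FPKM with PBS and at 19.4 and 10.7 FPKM with bleomycin. Fyn is made in many lung cells besides T cells.

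The genes whose profile over the 4 libraries lay closest to the mean of the CD3 genes were Ptprcap, Btla, Itgae, Lat and Ptpn22, out of 78 T cell genes compared. Likeness was the root mean square distance between centred log2 values, which ran from 0.0938 for Ptprcap to 0.189 for Ptpn22. Ptprcap, a protein bound to CD45, was at 8.64 and 10.5 FPKM with PBS and at 11.9 and 3.83 FPKM with bleomycin. Foxp3 and Ctla4 were not among the 5.

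Among 20 further genes associated with regulatory T cells, 13 were tested, of which 3 rose, 0 fell and 10 did not pass, with a median log2 change of 0.43. Over all tested genes 8.59% rose and 7.69% fell. Tnfrsf9, Tnfrsf4 and Batf are the 3 that rose. The count moved with the bleomycin library left out. At an unadjusted p under 0.05, 4 were higher and 2 lower, against 2231 and 2349 of all 12986 tested genes. The 2 lower ones were Prdm1 and Nrp1. Prdm1 was at 3.42 and 3.18 FPKM with PBS and at 2.4 and 1.61 FPKM with bleomycin (adjusted p = 0.102 by limma). Nrp1 was at 69.9 and 67.2 FPKM with PBS and at 57.1 and 60.7 FPKM with bleomycin (adjusted p = 0.137 by limma). Tnfrsf9, which encodes the activation receptor 4-1BB, was at 0.51 and 0.42 FPKM with PBS and at 5.72 and 3.26 FPKM with bleomycin (log2 change 1.87 ± 0.25, adjusted p = 0.0162 by limma). Its PBS mean was 0.465 FPKM, so it passed the filter only through its bleomycin values. With no filter it still passed (adjusted p = 0.0374 by limma). Tnfrsf4, the gene of OX40, was at 2.04 and 2.2 FPKM with PBS and at 5.25 and 4.29 FPKM with bleomycin (0.88 ± 0.14, adjusted p = 0.0212 by limma). Batf, a transcription factor of activated lymphocytes, was at 5.31 and 5.18 FPKM with PBS and at 11.2 and 8.94 FPKM with bleomycin (0.82 ± 0.13, adjusted p = 0.0234 by limma). For these 3 genes both bleomycin libraries were above both PBS libraries, library 1 being the higher. The call for Batf was lost with no filter (adjusted p = 0.051 by limma), and all 3 calls were lost without a PBS library, as for every gene. They are also expressed by other activated T cells, and Batf by myeloid cells. Which lung cells made the 3 transcripts was not tested. Summed levels of 8 monocyte and macrophage markers were 2428 and 3017 FPKM with PBS and at 5260 and 1850 FPKM with bleomycin, mostly Lyz2. Of these 8 markers 4 rose and 0 fell. Cd68 was at 37.7 and 37 FPKM with PBS and at 135 and 85.4 FPKM with bleomycin. The part of macrophage transcripts in the rises of Tnfrsf9, Tnfrsf4 and Batf was not tested.

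Of the 7 inhibitory receptor genes 5 were tested, with 1 rise and 0 falls, where 8.59% of all tested genes rose and 7.69% fell. The count of rises moved with the bleomycin library left out, and it was 3 with quantile normalization. Cd200r1, an inhibitory receptor of myeloid cells and T cells, was at 1.72 and 1.97 FPKM with PBS and at 6.01 and 4.84 FPKM with bleomycin (log2 change 1.17 ± 0.14, adjusted p = 0.0136 by limma). Havcr2, the gene of TIM-3, was at 4.5 and 4.86 FPKM with PBS and at 7.75 and 5.54 FPKM with bleomycin and did not pass (adjusted p = 0.159 by limma). Btla was at 4.27 and 4.02 FPKM with PBS and at 5.06 and 1.5 FPKM with bleomycin, highest and lowest in the same libraries as the CD3 genes. Among 8 genes of ligands on presenting cells 6 were tested, of which 2 rose and 0 fell, against the same 8.59% and 7.69%. Here too the counts moved with the bleomycin library left out. Cd80, a ligand of CTLA-4 and CD28, was at 0.83 and 0.89 FPKM with PBS and at 2.19 and 2.01 FPKM with bleomycin (0.74 ± 0.13, adjusted p = 0.0294 by limma). With a PBS mean of 0.86 FPKM it passed the filter only through its bleomycin values, and with no filter it still passed (adjusted p = 0.0317 by limma). Tnfsf9, the ligand of 4-1BB, was at 2.19 and 2.02 FPKM with PBS and at 6.06 and 6.05 FPKM with bleomycin (1.18 ± 0.11, adjusted p = 0.00867 by limma). In both, the 2 bleomycin libraries lay close together. The call for Cd80 was lost with the replicate block (adjusted p = 0.0584 by limma).

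In the interleukin 2 list of 10 genes 9 were tested, with 1 rise and 1 fall. These counts lie near the 8.59% and 7.69% of all tested genes that rose and fell. Leaving out a bleomycin library moved these counts. Jak3, the kinase bound to the common gamma chain, was at 15 and 15.2 FPKM with PBS and at 27.5 and 26.6 FPKM with bleomycin (log2 change 0.80 ± 0.08, adjusted p = 0.00973 by limma). Stat5b, which carries the interleukin 2 signal to the nucleus, was at 16.8 and 17.1 FPKM with PBS and at 12.2 and 11.6 FPKM with bleomycin (-0.47 ± 0.08, adjusted p = 0.0273 by limma; adjusted p = 0.057 with the replicate block). Il2 itself was at 0.06 FPKM or listed at 0 in every library. Among the T cell transcription factor genes, Ets1 and Zbtb7b had the highest means. Ets1, a factor of the ETS family, was at 42.3 and 39.8 FPKM with PBS and at 47.8 and 33.6 FPKM with bleomycin. Its groups overlapped, with bleomycin library 1 the highest and library 2 the lowest. Zbtb7b, which directs T cells to the helper lineage, was at 19.1 FPKM in both PBS libraries and at 21.8 and 22.2 FPKM with bleomycin. Neither passed (adjusted p = 0.913 and adjusted p = 0.149 by limma). The interleukin 17 genes Il17a and Il17f were at 0.24 FPKM or less with PBS and listed at 0 with bleomycin. Of the 7 genes of naive and recirculating T cells 0 rose and 0 fell by limma, where 8.59% and 7.69% of tested genes did. Without adjustment 0 were higher and 1 lower at p under 0.05, against 2231 and 2349 of all 12986 tested genes. These counts also moved with the bleomycin library left out. With quantile or upper quartile scaling 1 fell. In this list S1pr1 and Klf2 had the highest means. Both are also made by endothelium.

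Of 6 tested lymph node and lymphoid aggregate markers, 5 were lower in bleomycin library 2 than in library 1, as were 8090 of all 12986 tested genes. Of the 6, 3 were at least 2-fold higher in library 1 and 4 had their lowest value in library 2. Over all tested genes these shares were 4.76% and 39.2%. Cxcl13 and Ccl21a rose, where 8.59% of all tested genes rose. Ccl19 was at 19.1 and 17.9 FPKM with PBS and at 20.3 and 5.67 FPKM with bleomycin. Ccl21a, a chemokine that draws naive T cells, was at 149 and 151 FPKM with PBS and at 253 and 203 FPKM with bleomycin (log2 change 0.59 ± 0.13, adjusted p = 0.0475 by limma). That call was lost with no filter, with the replicate block and with no variance trend, at adjusted p-values of 0.0787, 0.0654 and 0.0562 by limma. Neither Ccl21a nor Cxcl13 followed the CD3 genes across the bleomycin libraries, Cxcl13 being at 10.6 and 11.4 FPKM. Of the hepatocyte markers, 8 of 8 fell, where 7.69% of all tested genes did. Their sum went from 110 and 105 FPKM with PBS to 11.7 and 7.81 FPKM with bleomycin. Their part in the values above was not tested.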

How the data were processed

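Lung RNA of 2 groups of mice, PBS and bleomycin, with 2 libraries each, was analysed from 1 table. The authors deposited 1 FPKM column for each library, rounded to 2 decimals, per the file headers. The submitters' processing notes list HISAT, Bowtie2, GRCm38 and mm10. The quantifier, tool versions and use of strand: not given in the sources used here. Of 17692 rows, 1 without a gene name (at most 0.0009% of a library) was not used, and 27 gene names stored as dates were restored through RefSeq accessions. Depth was estimated from values of 0.03 to 0.3 FPKM in genes with 1 transcript of 300 to 1000 bases: at the best depth 75% to 78.1% were whole fragments to within 0.15, where chance gives 30%. GENCODE transcript lengths were used, so fragment numbers are approximate.

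After adding 1 FPKM and taking log2, the 12986 genes whose mean reached 1 FPKM were tested by limma (version 3.58.1, R version 4.3.3; linear model, moderated with a mean-variance trend), two-sided, with Benjamini-Hochberg adjustment over all of them and a threshold of 0.05. Residual degrees of freedom were 2 and prior ones 2.76. The function was tested on simulated data. The 10 genes and the lists were chosen with earlier results of these data known, and 190 of 191 genes asked for were in the table. Named genes are the 10, up to 4 called per T cell list or, where fewer than 2 were called, the 2 of highest mean, and the 2 of highest mean per marker list. Other marker genes, Prdm1, Nrp1 and Eif2s3y were chosen after their values were seen. Alternatives were other pseudocounts, filters, scalings and variance models, a block for the replicate number, and fits with 1 library left out. Tables were made in Python 3.11.15 with pandas 2.3.3. Some results on single genes of these lists are not reported here.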

Additional observations from a re-analysis of the deposited data

How the results depend on the processing

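The counts of all genes, 1116 higher and 998 lower, stayed within 1.5 times under every setting tried other than leaving out a library, where they ran from 0 to 2402 higher and from 0 to 3144 lower. Among the 10 T cell genes, the 2 rises became 1 with no filter and 1 with the replicate block, Foxp3 both times, and 0 with a minimum mean of 5 FPKM, which only Cd3g reached. Leaving out a library gave 0 to 7 rises and 0 to 4 falls. With 1 bleomycin library removed, the residual spread comes from the PBS libraries alone, where 0.377% of tested genes were at least 2-fold apart. With 1 PBS library removed, it comes from the bleomycin libraries alone. In each case the lone sample is assumed to vary like the other group. The log2 changes of several genes turned sign with the bleomycin library left out, among them Cd3d, Cd4, Icos, Btla, Cd2 and Ccl19. So did those of Cd3e, Cd3g, Cd79a and Itgae: -0.93, -0.79, -2.08 and -0.49 without library 1, and 0.45, 0.49, 0.30 and 0.62 without library 2. These changes come from the removal of 1 library of 2. Replicate numbers shared by the groups were not taken to pair the libraries, since the correlation of the replicate differences between groups was 0.0231. With the replicate block limma called 842 higher and 799 lower. TPM rescaling gave 1495 higher and 916 lower, a larger share of higher calls. No scaling moved the median log2 change of all genes by over 0.1. At 4 to 26 fragments for Foxp3 and Ctla4 in each PBS library, PBS levels are imprecise.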

Other observations

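Some genes outside the rule for named genes, chosen after their values were seen, are given as values. Tnfsf18, the ligand of the regulatory T cell receptor GITR, was at 0.19 and 0.03 FPKM with PBS and at 1.77 and 25.4 FPKM with bleomycin. It did not pass limma (log2 change 2.95 ± 1.06, adjusted p = 0.127) and, unlike the T cell genes, was highest in bleomycin library 2. Its receptor gene Tnfrsf18 was at 4.06 and 2.65 FPKM with PBS and at 7.11 and 4.5 FPKM with bleomycin (adjusted p = 0.157 by limma). Pdcd1, the gene of the inhibitory receptor PD-1, was at 0.34 FPKM in both PBS libraries and at 2.95 and 1.36 FPKM with bleomycin. It did not pass (adjusted p = 0.0523 by limma). Like Tnfsf18, with a PBS mean of 0.11 FPKM, Pdcd1 reached the filter only through its bleomycin values. Tigit was at 1.02 and 1.09 FPKM with PBS and at 4.42 and 1.65 FPKM with bleomycin (adjusted p = 0.157 by limma). Cd8b1, the partner of Cd8a, was at 6.53 and 4.89 FPKM with PBS and at 5.46 and 1.09 FPKM with bleomycin.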
